A study of Mus musculus with 4 samples.

Results

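Ugt1a1, Ugt1a2, Mroh2a and Hjurp are neighbours at 88 Mb of mouse chromosome 1, and 47 of the 77823 Malat1 ChIRP peaks had a summit in the body of at least 1 of these 4 genes or within 5 kb of it. The genes were chosen by the density of summits and the level of the input at them in this same peak list, so the density and everything measured on these peaks are given as a description, with no test. The cells were 4T1-TGL, a breast cancer line from BALB/c mice, labelled WT throughout and grown in DMEM/F12 medium with no treatment given. In ChIRP, biotin-labelled oligonucleotides complementary to an RNA pull that RNA out of sheared chromatin, and the DNA attached to it is sequenced. The labels give 4 libraries, 1 for each of a Malat1 pull-down titled Even, a Malat1 pull-down titled Odd, a LacZ pull-down, LacZ probes being the usual non-targeting control of this assay, and an input. The deposited values are those of 1 merged treatment set against 1 input, and the sources used here do not say which pull-downs were merged. No value therefore has a replicate, and what follows cannot be compared between probe pools.

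The Ugt1a locus encodes UDP-glucuronosyltransferases, enzymes of the endoplasmic reticulum that attach glucuronic acid to bilirubin, steroids and drugs so that they can be excreted. Its genes have a first exon each, spliced to downstream exons that all of them share, so the annotated bodies are nested and nearly all end at the same base. Ugt1a1 is the member that conjugates bilirubin. Hjurp is the chaperone that delivers the histone variant CENP-A to centromeres. Mroh2a encodes a protein of the maestro family with HEAT-like repeats. Malat1 itself is a highly expressed noncoding RNA that gathers in nuclear speckles and is known to associate with many active genes.

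All positions are on GRCm38 (mm10), with gene bodies from the RefSeq table of that build. Ugt1a2 (gene ID 22236) spans 88200611 to 88220002 and Ugt1a1 (gene ID 394436) spans 88211959 to 88220002, wholly inside Ugt1a2. Mroh2a (gene ID 100040766) follows after a gap of 6988 bp, from 88226991 to 88262289. These 3 genes are on the plus strand. Hjurp (gene ID 381280) is on the minus strand from 88258856 to 88277644, and its end overlaps the end of Mroh2a by 3434 bp. The annotation used gives no exons, so no summit is placed in an exon, an intron or a UTR. The run of dense summits at these genes, called the dense stretch and delimited further on, reached from 88216125 to 88307811.

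Where the peaks lie relative to the gene starts can be read from the promoter windows, which run from 250 bases before a gene's start to 50 after it in the RefSeq promoter table of GRCm38.p6. The windows of Mroh2a, Hjurp and Ugt1a1 are shown because the first was overlapped by a peak, the second lay within the dense stretch without a peak, and the third lay just outside the stretch. Capitals mark the bases inside a peak.
Mroh2a, chr1:88226770-88227069, plus strand: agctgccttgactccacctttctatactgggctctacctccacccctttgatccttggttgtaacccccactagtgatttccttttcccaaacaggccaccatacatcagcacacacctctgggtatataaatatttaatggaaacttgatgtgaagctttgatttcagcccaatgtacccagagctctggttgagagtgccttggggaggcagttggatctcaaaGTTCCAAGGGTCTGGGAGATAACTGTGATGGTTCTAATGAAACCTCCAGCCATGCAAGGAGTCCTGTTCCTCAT
Hjurp, chr1:88277530-88277829, minus strand: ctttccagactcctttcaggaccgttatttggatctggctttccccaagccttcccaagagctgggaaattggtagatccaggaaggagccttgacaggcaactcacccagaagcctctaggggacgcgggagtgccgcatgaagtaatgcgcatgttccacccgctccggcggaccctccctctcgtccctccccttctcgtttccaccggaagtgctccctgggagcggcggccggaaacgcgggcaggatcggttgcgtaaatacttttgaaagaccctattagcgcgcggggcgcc
Ugt1a1, chr1:88211709-88212008, plus strand: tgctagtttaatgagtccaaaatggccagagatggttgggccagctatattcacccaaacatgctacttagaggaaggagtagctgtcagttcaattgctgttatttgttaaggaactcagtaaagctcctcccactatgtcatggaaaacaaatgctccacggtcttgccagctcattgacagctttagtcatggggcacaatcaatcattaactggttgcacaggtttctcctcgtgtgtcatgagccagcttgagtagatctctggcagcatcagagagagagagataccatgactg

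Of the Mroh2a window, 74 of 300 bases lay in the peak from 88226996 to 88227322, which held 7 tags. Its summit at 88227025 lay just after the start that the promoter table uses, 88227020, which differs from the first base of the body, 88226991. For Hjurp the promoter table likewise uses 88277579 and not the outermost base of the body, 88277644. Of 21044 promoter windows of protein-coding genes, 1.86% were overlapped by a peak. This peak had the lowest fold of all 47, at 13.6, with a height of 2 tags at an implied input of 8.79, so the overlap rests on a weak peak. The Hjurp window held no peak, and the nearest summit lay 1667 bp away. The Ugt1a1 window ended 4117 bp before the first summit of the gene. GC content was 47.3% for Mroh2a, 59.7% for Hjurp and 45.3% for Ugt1a1, against a median of 52.7% over 32851 windows of all genes. On either strand, the letters TATAAA occurred 1 time in the Mroh2a window and 0 times in the others, and they occur in 13.6% of all windows. The letters CCAAT occurred 1 time each in the Mroh2a and Hjurp windows and 0 times in that of Ugt1a1, against 37.4% of all windows. The letters GGGCGG occurred in none of the 3 and occur in 35.7% of all windows. These are matches of letters and are not binding sites.

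The peaks were many and close together. Mroh2a had 31 summits, 25 of them in its body, Hjurp had 22, 8 of them in its body, and Ugt1a1 and Ugt1a2 had 12 each, 7 of them in the body. The genes share peaks, so these counts do not add up. Ugt1a1 and Ugt1a2 had the same 12 summits, Hjurp and Mroh2a shared 14, and Mroh2a shared 4 with the Ugt1a pair. Of 21627 protein-coding genes, 60.8% had at least 1 summit by the same rule, 47.9% had one in the body, and the median gene had 1. As many summits as Ugt1a1 or Ugt1a2 were found at 2.83% of protein-coding genes, as many as Hjurp at 0.879% and as many as Mroh2a at 0.407%. Per kb of body and flanks, Hjurp had 0.764 summits, Mroh2a 0.684, Ugt1a1 0.665 and Ugt1a2 0.408. As high a value or higher was found at 0.0694% of genes for Hjurp, 0.0925% for Mroh2a, 0.111% for Ugt1a1 and 0.162% for Ugt1a2. Nothing is read from these shares, since the genes were listed for their density.

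**Figure D1:**
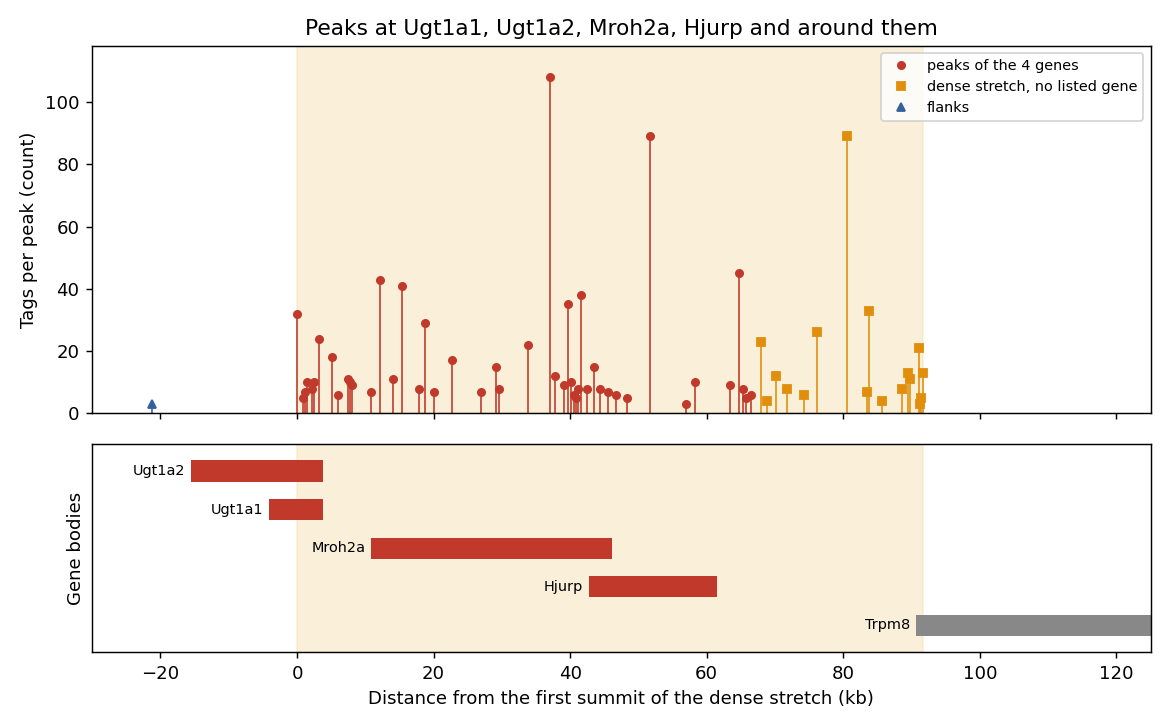
Tags per peak (upper panel, 1 line per peak at its summit) and gene bodies (lower panel) against distance from the first summit of the dense stretch in kb, with the stretch shaded. The 47 peaks of the 4 genes and the 17 that follow them fill 91.7 kb, and the nearest summits outside lie 21285 bp before and 55651 bp after it, the second being beyond the plotted range.

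Ugt1a1 and Ugt1a2 were covered over their shared end and not over their starts. The first dense summit lay at 88216125, 4166 bp inside Ugt1a1 and 15514 bp inside Ugt1a2. From there to the gene end at 88220002 were 7 summits in 3.88 kb. The strongest was the first peak (88215919 to 88216330), with 32 tags, a height of 13 and a fold of 92.0, followed by the last (88219147 to 88219480), with 24 tags and a fold of 56.0. The 5 peaks between them held 5 to 10 tags each. The rest of the Ugt1a locus, 160714 bp from the start of Ugt1a10 to the first dense summit, held 1 summit, at 88194840, with 3 tags and an implied input of 1.35. It falls 771 bp outside the 5 kb limit of Ugt1a2, so it is not among the 47.

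The other 7 genes of the locus had 12 or 13 summits each, and these were largely the same ones. Ugt1a5, Ugt1a6a, Ugt1a7c, Ugt1a9 and Ugt1a10 had 13, of which 12 lay in the dense stretch. Ugt1a6b and Ugt1a8, whose annotated bodies end earlier, at 88218998, had 12, of which 11 lay in it. The counts in the stretch thus come from the shared end and the 5 kb beyond it: of the 12 at Ugt1a1, 7 lay in the body and 5 between Ugt1a1 and Mroh2a. The first exons of the locus resemble one another, and how tags matching several places were treated is not stated, so the single summit before the stretch is an uncertain count. Dnajb3, a co-chaperone gene lying inside Ugt1a2 before the first dense summit, had 0 summits within 5 kb.

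Mroh2a held the peak with the most tags. It ran from 88252844 to 88253430 within the gene body and had 108 tags, a height of 20 and a fold of 149, rank 173 of 77823 by tags and rank 33362 by fold. It was the only one of the 47 peaks at or above the list median fold of 133, a level that 45.5% of protein-coding genes reach with at least 1 peak. Fold divides by the local input, so this level asks for a larger height where the input is high. Near the start of the gene, the peak from 88227948 to 88228379 had 43 tags and a fold of 86.5, and the one from 88231497 to 88232152 had 41 tags and a fold of 53.4. Over the body outside Hjurp, 22 summits stood in 31.9 kb, with a median of 10.5 tags. The 6988 bp between Ugt1a1 and Mroh2a held 5 more, of up to 18 tags.

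Hjurp had fewer summits in its body than Mroh2a, and its strongest peak was also the longest of the 47. This peak, 756 bp from 88267547 to 88268302, had 89 tags, a height of 18 and a fold of 103. The overlap with Mroh2a held 3 summits of up to 15 tags, and the remaining 15.4 kb of the body held 5, or 0.326 per kb, against 0.690 per kb in the body of Mroh2a outside the overlap. Within 5 kb of the Hjurp start, outside the body, the peak from 88280350 to 88280928 had 45 tags and a fold of 102. Just inside the 5 kb limit there the summit at 88282551 had 6 tags and a fold of 51.0, and just outside it the summit at 88284028 had 23 tags and a fold of 50.4. The summit just outside the limit of Hjurp on the other side was that of the 108-tag peak of Mroh2a, 735 bp beyond it. The 5 kb limit therefore cuts through a continuous run of peaks.

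The 47 peaks together held 820 tags (exact 95% Poisson interval 765 to 878, counting error only, with tags taken as independent). The tags of a peak are the treatment tags in its interval as deposited, and the list median was 5. The 47 had a median of 9 tags, from 3 to 108, and 8 of them (17.0%) held at least 30, against 4.01% over chromosomes 1 to 19 and X. Only 1 of them held 3 tags, the fewest of any peak, against 37.2%. The p cutoff of the authors' run asks for more tags where the input is higher, so this share is not independent of the input. Peaks longer than 500 bp were 6 of 47 (12.8%), against 1.31%. Their fold went the other way. Fold enrichment, a ratio computed by the authors, sets the summit height against the largest of several local input levels after scaling, and it had a median of 33.4 at these peaks, from 13.6 to 149. The plot of tags against fold shows both.

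**Figure D2:**
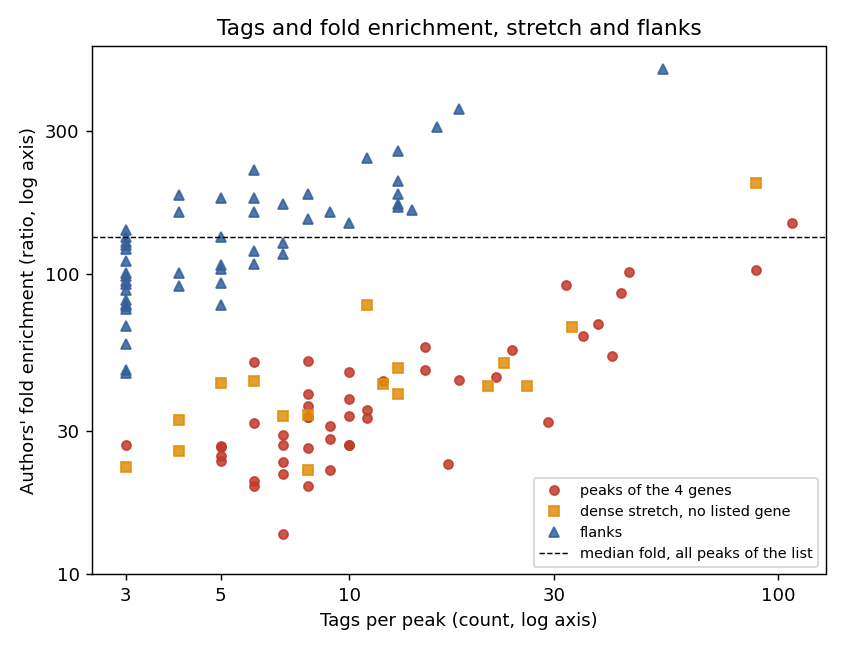
The authors' fold enrichment (ratio, log axis) against tags per peak (count, log axis) for the 47 peaks of the 4 genes, the other 17 peaks of the dense stretch and the 51 peaks of its 500 kb flanks. At the same number of tags the flank peaks lie above those of the stretch, and 1 of the 47 peaks is above the dashed line, the list median of 133.

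The level of the input at these genes can be had from the same values. The summit height divided by the fold, over the genome mean background of the authors' run (0.0167 tags per fragment length of 53 bp), gives how many times the genome mean the scaled input reached locally, called here the implied input. It is known only at peaks, and since the authors' run took the highest of the genome mean and the levels over 1 kb and 10 kb, it is never below 1. Over the 47 peaks its median was 8.93, with a lowest value of 6.66 and a highest of 10.8. By gene, the median was 9.07 at Mroh2a, 9.04 at Ugt1a1 and Ugt1a2, and 8.90 at Hjurp. Over all peaks of chromosomes 1 to 19 and X the median was 1.40.

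Along the stretch the implied input was highest between Ugt1a1 and Mroh2a, with a median of 10.6 over 5 peaks. It was 8.90 both over the end of Ugt1a1 and over the body of Mroh2a outside Hjurp. In the overlap of Mroh2a and Hjurp it was 9.39, and in the rest of the Hjurp body 9.37. Between Hjurp and Trpm8, the gene of a cold-sensing ion channel, it was 7.41 over 18 peaks. The 10 kb window behind these values joins neighbouring peaks, so they are not independent of one another.

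Both edges of the stretch depended on the setting. It was taken as the run of summits that fits a raised density best against the density of chromosome 1, 30.8 summits per Mb. At 3 times that density, the value chosen for the main result, it ran for 1400 kb from 88216125 to 89616350 and held 147 summits. At 5 times and at 10 times it ran for 91.7 kb, from 88216125 to 88307811, and held 64 summits. At 2 times it began at 85785001, and at 3 times with only peaks of at least 5 tags it began at 86500096. The shorter stretch had a density of 698 per Mb and a median implied input of 8.82, against 63.4 per Mb and 1.53 over the 83 summits of the longer stretch that lie beyond it. The shorter stretch holds all 47 peaks of the 4 genes, and the dense stretch means this one throughout. That choice was made after the values were seen. The other 17 peaks lay between the 5 kb limit of Hjurp and the start of Trpm8, or in the first 1077 bp of Trpm8.

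At both edges of the dense stretch the implied input fell together with the density. The search placed the edges by density, so the change in density there is by construction. On the left, the first dense summit had an implied input of 8.46 and the next summit outward, 21285 bp away, had 1.35. On the right, the last dense summit at 88307811 had 6.15 and the next, 55651 bp away at 88363462, had 1.67. The edges are known only to within these gaps. For the longer stretch at 3 times, the median implied input was 1.53 over its summits beyond the shorter one. It was 1.48 in the 500 kb on both sides of the longer stretch. Trpm8 lay across the right edge. In its first 1077 bp were 4 summits with a median implied input of 7.39, and in its remaining 81.0 kb were 5 with a median of 1.53.

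**Figure D3:**
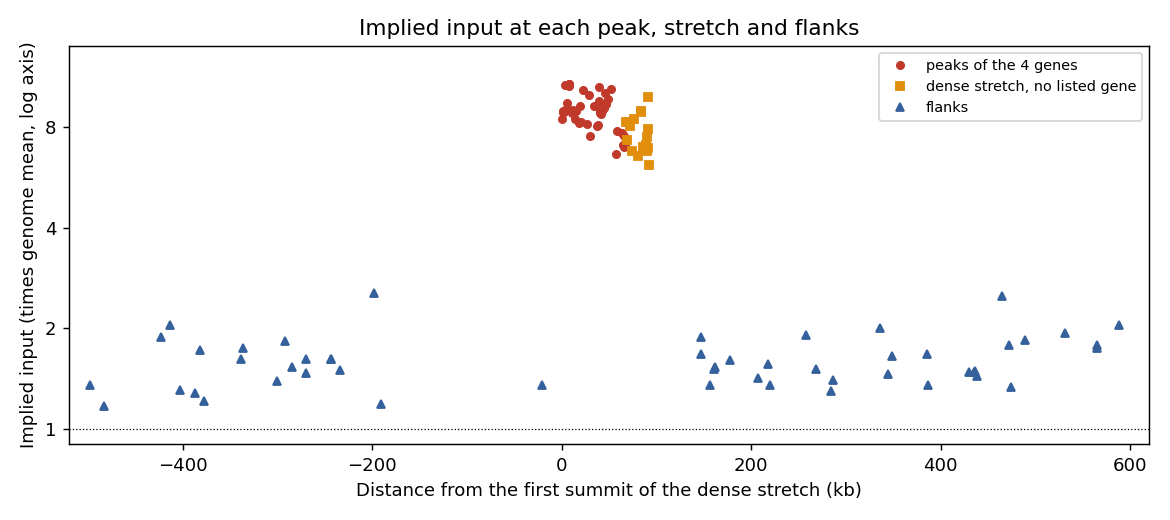
Implied input (times the genome mean, log axis, dotted line at 1) at every peak of the dense stretch and of 500 kb on both sides, against distance from the first dense summit in kb. All 64 peaks of the stretch lie between 6.15 and 10.8, and all 51 flank peaks lie at or below 2.55.

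No flank peak reached the level of the stretch. Of the 51 peaks in the 500 kb on both sides, 0 had an implied input at or above 6.15, the lowest in the stretch. On chromosome 1 outside the stretch, 5 of 5951 peaks did, and the highest of them was at 56.3, above the stretch maximum of 10.8. Usp40, a ubiquitin protease gene and the first protein-coding gene before the Ugt1a locus, had 5 summits at a median implied input of 1.62. Spp2, a secreted phosphoprotein gene and the first after Trpm8, had 1, at 1.42. The 108-tag peak of Mroh2a, with a fold of 149 at an implied input of 8.06, can be set beside the flank peak with the most tags, just past the end of Trpm8 from 88392946 to 88393380, which had 54 tags and a fold of 482 at an implied input of 1.61. The Mroh2a peak thus held more tags and had the lower fold.

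The density of the stretch relative to its surroundings depended on which peaks were counted. With all peaks it was 698 summits per Mb in the stretch, against 51 per Mb in the flanks, a ratio of 13.7. Among peaks with at least 5 tags the values were 654 per Mb in the stretch and 28 per Mb in the flanks, a ratio of 23.4. Among peaks with at least 30 tags they were 109 per Mb in the stretch, from 10 summits, and 1 per Mb in the flanks, from 1 summit, a ratio of 109. Among peaks with fold at or above the list median they were 21.8 per Mb in the stretch, from 2 summits, and 24 per Mb in the flanks, a ratio of 0.909. These 2 were the 108-tag peak of Mroh2a and a peak of 89 tags between Hjurp and Trpm8 (88296328 to 88296903). The peak between Hjurp and Trpm8 had a fold of 201 and a height of 22, the highest in the list, which 103 peaks reached. The part of the raised input in the dense summits was not tested.

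The tags in peaks can be set beside the implied input as a description. The stretch held 1106 tags in its 64 peaks (exact 95% Poisson interval 1042 to 1173), or 12.1 per kb. That is 38.3 times the genome mean of the treatment, 0.315 tags per kb, and 4.34 times that mean multiplied by the median implied input of the stretch. The same quantity was 0.759 in the flanks and 0.526 on chromosome 1 outside the stretch. Without the 108-tag peak it was 3.90 in the stretch. The peaks were called from these same tags, peaks covered 18.96% of the stretch, against 0.856% of the flanks, and the implied input is known only at peaks, so this quantity does not separate the pull-down from the input.

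Few places in the genome were as dense. Of 26133 windows of 100 kb on chromosomes 1 to 19 and X, 18 (0.0689%) held 56 summits or more, the number in the fullest window of the stretch. Of these, 1 was that window and 17 lay in the block at 101 to 106 Mb of chromosome 11. That block had 325 summits per Mb over 5 Mb and 655 per Mb in its part from 103 to 105 Mb. The 1 Mb window of chromosome 15 that holds Myc had 134 per Mb. The stretch was delimited by its density and the other regions by fixed windows, so their densities are set side by side and not ranked.

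The stretch stood between these regions in implied input. Its median was 8.82 (5th to 95th percentile 6.80 to 10.6), against 23.6 (1.67 to 36.3) in the chromosome 11 block and 4.64 (3.51 to 11.2) in the Myc window. At or above 6.15, the lowest value in the stretch, were 94.6% of the peaks in the block and 39.6% of those in the Myc window. These shares have no upper limit, so they do not measure overlap with the stretch. Of the 1624 peaks in the block, the 1310 from 103 to 105 Mb all lay above 10.8, the highest value in the stretch. Median tags per peak were 9.5 in the stretch, 22 in the block and 8.5 in the Myc window. The tags in peaks, relative to the genome mean multiplied by the implied input, came to 4.34 in the stretch, 1.68 in the whole block, 3.61 in its part from 103 to 105 Mb and 1.42 in the Myc window. This quantity divides by the length of the region. The stretch was delimited by its density and the others by fixed windows, so these values are not ranked either.

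**Figure D4:**
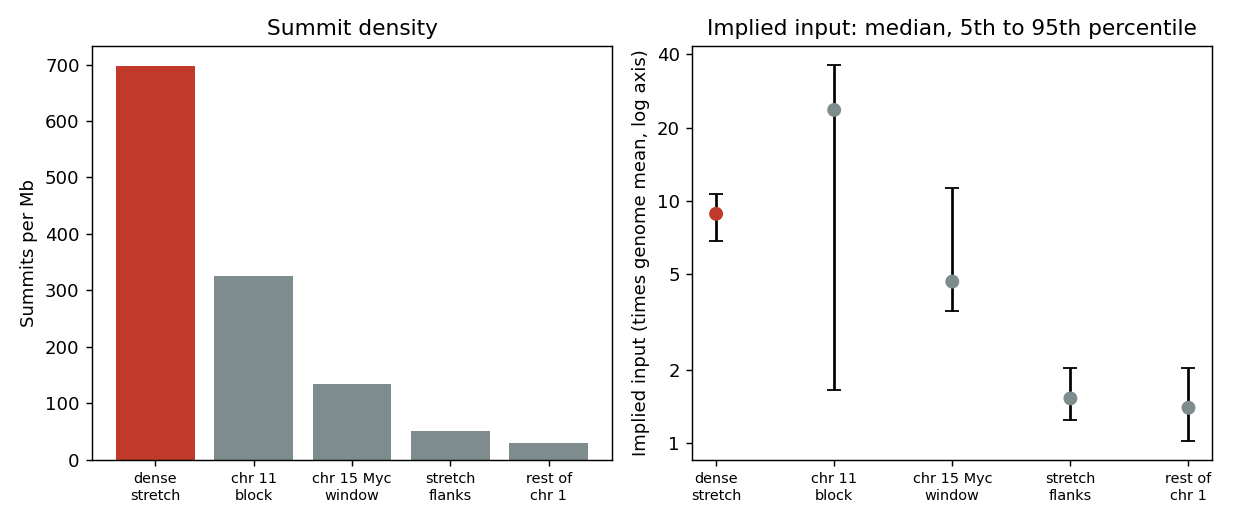
Summits per Mb (left, bars) and implied input in units of the genome mean (right, log axis, points for the median and lines for the 5th to 95th percentile over peaks) in the dense stretch, the chromosome 11 block, the Myc window of chromosome 15, the flanks of the stretch and the rest of chromosome 1. The stretch is at 698 per Mb and 8.82, and its flanks are at 51 per Mb and 1.53.

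The genes most like the 4 in this list were on chromosomes 15 and 11. Likeness was the distance in log2 summits per kb and log2 median implied input from the 4 genes together (0.540 per kb and 8.93), over 2552 protein-coding genes with at least 5 summits outside the stretch, in this 1 peak list. Ndufb9, a gene of respiratory complex I, was nearest, with 6 summits at 0.382 per kb and an implied input of 7.18, at a distance of 0.591. Mtss1, an actin-binding protein gene beside it on chromosome 15, followed with 54 summits, at a distance of 0.730. Meox1, a homeobox gene, came next at 0.778, with Cfap97d1 at 0.961 and Dusp3, a phosphatase gene, at 1.01. These last 3 lie on chromosome 11 between 101877510 and 101992264, in the block named above, and had implied inputs of 15.3 to 17.7.

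Of 13 other UDP-glucuronosyltransferase genes, 7 (53.8%) had a summit, against 60.8% of all protein-coding genes, with a median of 1 summit. Their highest folds were at Ugt3a1 (227, 17 tags), Ugt2b37 and Ugt2a1 (both 166, 3 tags). Among 14 genes of bilirubin and haem breakdown 9 (64.3%) had one. The highest folds there were at Blvra (417, 12 tags) and Blvrb (329, 16 tags), which encode biliverdin reductases, and Gstm1 (222, 4 tags).

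Of the 21 listed genes of CENP-A loading and the inner kinetochore, the process in which Hjurp acts, 9 (42.9%) had a summit, Hjurp included, against 60.8% of all protein-coding genes. Cenpa, which encodes the histone that Hjurp carries, had 0. Cenpm (341, 24 tags), Cenps (202, 8 tags) and Cenpw (190, 8 tags) had the highest folds, at implied inputs of 1.19 to 1.40. All 10 Mroh genes had a summit, and so did all 9 without Mroh2a, against 60.8% of all protein-coding genes. The median of the 10 was 4.5 summits, against 1 over all protein-coding genes. Neither the shares nor these counts were adjusted for gene length, and a longer body can hold more summits. Mroh5 (746, 64 tags), Mroh7 (361, 10 tags) and Mroh4 (322, 18 tags) led by fold, and Mroh2a had the most summits and the lowest best fold of the 10. The median implied input was 9.07 at Mroh2a, against 1.25 to 2.21 at the other 9 Mroh genes.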

How the data were processed

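The authors deposited a peak table, its intervals and its summits, which hold 77823 peaks each and were identical in position, score and summit for all 77823. They come from 1 run of MACS 1.4.4 on a merged treatment with an input as control, per the file headers. The treatment had 851227 tags after duplicate removal and the input 50030325, scaled down to the treatment. The p cutoff was 1e-05. Coordinates are on mm10 (GRCm38), as the submitters' processing notes name it, and no aligner is given. Tags per peak are deposited as whole-number counts. Fold is the authors' ratio of the summit pileup to local input. The score in the deposited files is a log10-transformed p of the MACS run and served only for ranks in the tables. Summit heights are the authors' signal, an unscaled pileup of tags. The percent FDR that the authors deposited is 0 throughout. All columns are values of the merged treatment, with none per library.

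Genes came from the RefSeq table of GRCm38.p6 (chromosomes 1 to 19 and X), and all 4 symbols matched. A summit belonged to a gene when it lay in the body or within 5 kb. The search for the stretch covered 80 to 96 Mb of chromosome 1. It was also run on simulated summits of uniform background density, with a planted run about as long as the shorter stretch. The density around the real stretch varies, so that simulation cannot say how well its edges are placed. Flanks were 500 kb on each side. The effective genome size of the run, 2.7 gigabases, sets the genome mean. Intervals on tag counts cover counting error only. The genes and lists were chosen with earlier results of these data known, so no test was run on them. Genes named were the 4 genes, the Ugt1a locus, genes in the stretch or first outside it, the 5 peaks of highest fold and of most tags and the longest peak, the 3 genes of highest fold in each other list, and the 5 genes most alike. Usp40, Cenpa, the promoter windows and the peaks near limits and edges were chosen for mention after their values were seen. Alternatives were other flanks, overlap of intervals, peaks with at least 5 tags or with fold at or above the median, other densities for the stretch and another genome mean. Python 3.11.15, numpy 2.4.6, pandas 2.3.3 and scipy 1.17.1 were used.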

Additional observations from a re-analysis of the deposited data

How the results depend on the processing

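The number of summits at the 4 genes stayed between 37 and 51 with the body alone, a 10 kb flank, overlap of intervals or peaks with at least 5 tags, against 47, and was 1 among peaks with fold at or above the list median. The length of the stretch, 1400 kb at 3 times the density of chromosome 1, was 8037 kb at 2 times, 91.7 kb at 5 and at 10 times and 4262 kb with peaks of at least 5 tags, and 268 kb with such peaks at 5 times. Its density over the flanks, 2.50, was 1.59 among peaks with fold at or above the median and 13.7 for the stretch at 5 times. Its median implied input, 1.94, was 7.07 for peaks with at least 5 tags, 1.62 for peaks of none of the 4 genes, 8.82 at 5 times and 7.48 at 5 times for peaks of none of the 4 genes. Tags relative to the implied input, 4.34 at 5 times, were 3.90 without the 108-tag peak. A longer stretch takes in more peaks of low input by its construction. A limit on fold asks for a larger height where the input is high. The causes of the other differences were not tested. Windows shifted by 50 kb left 23 windows as full as the fullest of the stretch, which then held 40 summits. The settings at 10 times, those at 5 times other than the length of 91.7 kb, those on peaks of none of the 4 genes, the shifted windows and the removal of a peak were chosen after seeing the data. No paired analysis was possible because each group has 1 library and the deposited values are of 1 merged treatment. With 851227 treatment tags, heights of 2 to 22 tags limit the precision of every fold, and the edges are known only to within the gaps between summits.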
